A study of Mus musculus with 2 samples.

Results

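The cells described here are macrophages, from libraries labelled as alveolar macrophages (AMs), that carried transcripts of *Apoe*, *S100a6* or *S100a4* together with a high level of *Cd63* and no *Marco*. They were chosen by their own measured values. Among barcodes with at least 500 detected genes and at most 10% mitochondrial unique molecular identifiers (UMIs), a cell had to hold at least 1000 counts per 1000000 UMIs (CPM) of its own for *Apoe*, *S100a6* and *S100a4* summed, 0 UMIs of *Marco*, at least 1000 CPM of *Chil3* and at least 1000 CPM of *Cd63*. The rule took 733 of 7666 filtered cells of the tumor library, or 9.56% with an exact binomial interval of 8.91% to 10.2%, and 22 of 6185 of the control library, or 0.356% (0.223% to 0.538%), so 755 of 13851 cells in all. They are called Cd63-high cells below. The 1165 tumor cells that met every other condition but held less than 1000 CPM of *Cd63* are called Cd63-low cells, and the remaining 5768 filtered tumor cells are called other cells.

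The series asked how AMs differ between tumor-bearing lungs and vehicle-treated lungs, and measured sorted AMs by droplet single-cell RNA-Seq from the 3′ end of transcripts. All mice were C57BL/6 and 10 weeks old. The control library came from mice given vehicle, and the tumor library from mice in which tdTomato-labelled Lewis lung carcinoma (LLC) cells, a line from the same strain, had been placed in the left lung. The study describes AMs as CD45+ autofluorescent cells that carry F4/80, Siglec-F and CD11c but not CD11b. In tumor-bearing lungs the same autofluorescent population also held Siglec-F- CD11b+ cells, which the study says could be regarded as tumor-associated macrophages (TAMs). There was 1 library per condition and the number of mice behind each is not given in the sources used here, so library and condition cannot be told apart, no test across samples was possible, and every interval covers counting error only.

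AMs are long-lived phagocytes of the airspace that clear surfactant lipid and debris, and their identity depends on GM-CSF, TGF-beta and the receptor PPARG. CD63 is a tetraspanin of late endosomes, lysosomes and exosomes. Apolipoprotein E carries lipids out of macrophages, S100A6 and S100A4 are calcium-binding proteins, and MARCO is a scavenger receptor. Transcripts of *Apoe*, *Gpnmb*, *Spp1*, *Fabp5* and *Cd63* are known to occur together in lipid-laden macrophages of several tissues. Type I interferon acts through the ISGF3 complex, which binds a repeated GAAA element in the promoters of its target genes.

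The genes behind the name lie, in GRCm38, at chr10:128900989-128912822 on the plus strand for *Cd63*, at chr7:19696109-19699188 on the minus strand for *Apoe* and at chr3:90612882-90624181 on the plus strand for *S100a6*. Genes described below include *Ly6e* at chr15:74955051-74959905, *Gpnmb* at chr6:49036546-49070929, *Fstl1* at chr16:37776873-37836514 and *Inhba* at chr13:16011851-16031621, all on the plus strand.

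The sequences printed here are the 250 bases before the start of 3 interferon-inducible genes that were higher in Cd63-high than in Cd63-low cells, since the element known for this response can be read in them. They are from RefSeq on GRCm38.p6, written 5′ to 3′ on the gene's own strand, and all 3 genes lie on the minus strand. Capitals mark the letters GAAANNGAA in either orientation, where N is any base. The window of *Isg15*, which encodes a ubiquitin-like modifier, is chr4:156200819-156201068 and holds 3 overlapping matches that begin 78 bases before the start. That of *Bst2*, which encodes the virus-tethering protein tetherin, is chr8:71537473-71537722 and holds 2 overlapping matches from 130 bases before the start. That of *Rsad2*, which encodes the antiviral enzyme viperin, is chr12:26456453-26456702 and holds 1 match, read on the opposite strand, 119 bases before the start.
Isg15: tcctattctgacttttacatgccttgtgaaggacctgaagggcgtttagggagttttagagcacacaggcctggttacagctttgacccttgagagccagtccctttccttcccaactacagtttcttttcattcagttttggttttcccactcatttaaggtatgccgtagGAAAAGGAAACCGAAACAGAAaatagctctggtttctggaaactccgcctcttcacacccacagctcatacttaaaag
Bst2: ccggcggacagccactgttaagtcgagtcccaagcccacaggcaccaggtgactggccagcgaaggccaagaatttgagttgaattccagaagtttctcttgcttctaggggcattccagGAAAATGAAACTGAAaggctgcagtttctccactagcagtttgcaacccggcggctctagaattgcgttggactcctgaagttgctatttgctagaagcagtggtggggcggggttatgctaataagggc
Rsad2: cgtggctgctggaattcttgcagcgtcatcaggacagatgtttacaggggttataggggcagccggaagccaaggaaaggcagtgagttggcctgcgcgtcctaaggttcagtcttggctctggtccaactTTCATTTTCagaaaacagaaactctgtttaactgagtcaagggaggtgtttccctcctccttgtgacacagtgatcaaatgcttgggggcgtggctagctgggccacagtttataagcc

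The tables hold 8485 control barcodes with 67847088 UMIs and 9175 tumor barcodes with 70738320 UMIs, of which the filter kept 64850143 and 68801889 UMIs. Filtered cells had a median of 10370 UMIs in the control library and 8264 in the tumor library. The tables share 25 barcodes, of which 1 was a Cd63-high and 4 were Cd63-low tumor cells. In the tumor library the median depth was 11113 UMIs in Cd63-high cells, 8159 in Cd63-low cells and 8030 in other cells, so the cells described here were the deeper ones. Their median number of detected genes was 3107, against 2762 in Cd63-low cells, and their median mitochondrial share was 2.55%, against 2.67%.

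In the tumor library, 2326 cells held the *Apoe*, *S100a6* and *S100a4* level, 2104 of them had no *Marco* UMI, 1898 of those reached the *Chil3* level, and 733 of those reached the *Cd63* level. *Cd63* at the rule's level was not restricted to this programme, as 1918 filtered tumor cells and 558 filtered control cells reached it. Within the 733 cells, *Cd63* ran from 1002 to 4488 CPM with quartiles of 1191, 1472 and 1861, against quartiles of 297, 521 and 754 in Cd63-low cells. The 2 genes of the name did not mark every cell. *Apoe* reached 1000 CPM in 337 of the 733 cells, and *S100a6* in 457.

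The levels of the genes that the rule used are given as a description only. Levels are CPM of the summed UMIs of a group, with exact Poisson intervals, and ratios carry exact binomial intervals. *Cd63* stood at 1656 CPM in Cd63-high, 548 in Cd63-low and 717 in other tumor cells. *Apoe* stood at 2117, 572 and 356 in the same order, although the rule did not ask for more *Apoe* in Cd63-high than in Cd63-low cells. *S100a6* was at 1364, 1366 and 288, so the Cd63-high and Cd63-low cells held the same level, and *S100a4* was at 375, 471 and 62.7. *Chil3*, which encodes a chitinase-like lectin of AMs, was at 8243, 9792 and 11044. Of the markers given with the name, *Ly6e* alone was not part of the rule, and its values follow below.

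The macrophage label held. All 10 macrophage markers, among them *Cd68*, *Adgre1*, *Lyz2* and *Csf1r*, reached 50 CPM in Cd63-high or Cd63-low cells, with a summed level of 31968 against 21079 CPM. *Lyz2* made most of that sum in both groups. Of the 10 markers, 6 had a log2 ratio above 0 and 4 below it. Past 1.5-fold, *Cd68* and *Lyz2* were higher and *Mrc1* was lower. Against other cells, *Cd68*, *Lyz2* and *Fcgr1* were higher and *Siglecf* and *Mrc1* lower by that measure. *Siglecf*, the gene of the surface lectin Siglec-F, was at 53.6 CPM in Cd63-high, 69.0 in Cd63-low and 117 in other tumor cells. *Pparg*, which encodes the nuclear receptor of AM identity, was at 81.0, 102 and 129. Markers of other cell types were near 0 in Cd63-high cells. Summed levels were 0.239 CPM for 7 T cell markers (5 of them at 0 UMIs), 0.716 for 6 B cell markers (3 at 0), 0.119 for 5 NK cell markers (4 at 0), 5.25 for 7 dendritic cell markers (3 at 0), 1.07 for 6 fibroblast markers (2 at 0) and 0.119 for 4 mast cell or basophil markers (3 at 0). Endothelial markers summed to 32.9 CPM and epithelial markers to 34.1, against 28.5 and 46.1 in other cells. Neutrophil markers summed to 208 CPM against 131 in Cd63-low and 108 in other cells, of which *S100a8* made 197, 112 and 86.2, while 2 of the 6 neutrophil markers were at 0 UMIs in Cd63-high cells. The part that neutrophil RNA had in any result was not tested.

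**Figure D1:**
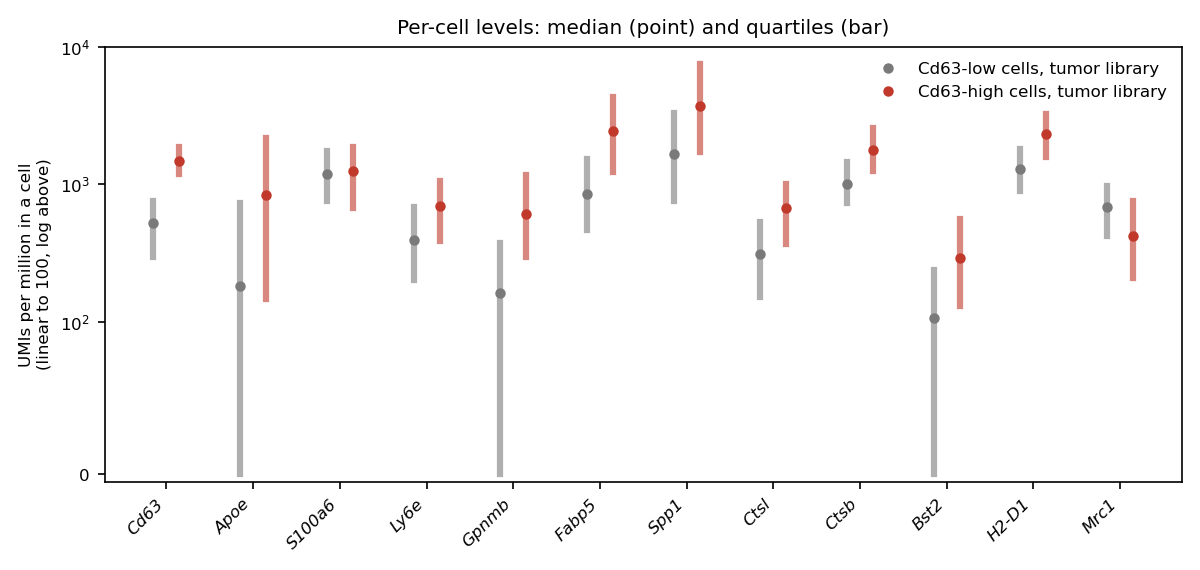
Levels of 12 genes per cell in Cd63-high (red, 733 cells) and Cd63-low (grey, 1165 cells) cells of the tumor library, in CPM of the cell on an axis that is linear to 100 and logarithmic above. Points are medians over cells and bars run between quartiles. The quartile bars of *Gpnmb* and *Fabp5* overlap between the groups although the medians are 605 against 162 and 2431 against 858, and *S100a6* is at the same place in both.

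The first comparison asked which genes differed with *Cd63* inside the *Apoe* and *S100a6* programme. In the tumor library, 11 of 17 tested lipid-associated and 9 of 37 lysosomal genes were at least 1.5-fold higher in Cd63-high than in Cd63-low cells. So were 8 of 14 type I interferon and 4 of 13 MHC class I genes. Genes at least 1.5-fold lower included *Stmn1*, *Hmgb2*, *Fpr2*, *C5ar1* and 4 of 19 tested inflammatory genes. Among 3206 genes with at least 50 CPM in either group, called tested here although only the fold was examined, 92 were at least 1.5-fold higher (2.87%), 2 of them being *Cd63* and *Apoe*, and 113 were at least 1.5-fold lower (3.52%). Since cells were split by *Cd63*, this contrast is the rule's own and these counts are a description. Some genes reached 50 CPM only in the group where they were higher, so the counts of lists partly reflect that minimum. The median gene had a log2 ratio of −0.15, so most tested genes were slightly lower in Cd63-high cells, and with every ratio taken relative to that median the counts became 159 higher and 52 lower. The share of higher genes among those past the fold was then 75.4%, against 44.9% without centring. Thinning every cell to one depth gave 61 higher and 59 lower genes, and a *Cd63* threshold of 1500 gave 162 and 359. For gene ratios after thinning, the rule was applied again to the thinned counts and took 763 cells. Membership thus changed together with depth in those ratios, and the part of each was not tested.

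Of the lipid-associated macrophage list, 11 of 17 tested genes were at least 1.5-fold higher and none was lower, with a median log2 ratio of 0.94. *Gpnmb*, which encodes a glycoprotein of lysosome-stressed macrophages, was at 974 CPM (953 to 995) in Cd63-high and 279 (269 to 290) in Cd63-low cells, a log2 ratio of 1.80 (1.74 to 1.86) or 3.49-fold. The quartiles over cells were 295, 605 and 1170 against 0, 162 and 376. After every cell was thinned to 3800 UMIs, which left out 40 Cd63-high and 101 Cd63-low cells, a *Gpnmb* UMI was found in 570 of 693 Cd63-high cells (82.3%) and 532 of 1064 Cd63-low cells. The background, filtered cells with little *Chil3* and at least 10 UMIs of fibroblast, lymphocyte, epithelial or endothelial markers, gave 2 of 17 cells (11.8%). *Fabp5* and *Fabp4* encode cytosolic fatty acid carriers. *Fabp5* was at 3767 against 1397 CPM, a log2 ratio of 1.43 (1.40 to 1.46), and *Fabp4* was at 412 against 140, a log2 ratio of 1.55 (1.46 to 1.64). *Spp1*, the gene of the secreted matrix protein osteopontin, was at 6302 against 3034 CPM, 2.08-fold. *Mmp12*, the macrophage elastase, was at 142 against 41.1 CPM and *Syngr1*, a vesicle membrane gene, at 227 against 110. *Trem2* and its adaptor *Tyrobp*, a lipid-sensing receptor pair, and *Lgals3* and *Cd36*, which encode a galectin and a fatty acid translocase, were past the fold as well, with *Lgals3* at 3863 against 2233 CPM.

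Of the lysosome list, 9 of 37 tested genes were past the fold, all higher, with a median log2 ratio of 0.33. They were the proteases *Ctsb*, *Ctsd*, *Ctsk*, *Ctsl*, *Ctss*, *Ctsz* and *Lgmn*, the proton pump subunit *Atp6v0c* and *Cd68*. *Ctsl* was at 798 (779 to 817) against 394 (382 to 407) CPM, a log2 ratio of 1.02 (0.96 to 1.07), and *Ctsb* was at 2104 against 1165, a log2 ratio of 0.85 (0.82 to 0.89). Both tested inhibitors of such proteases were higher too, *Cstb* at 1110 against 620 and *Cst3* at 1159 against 723 CPM. *Cst3* fell just short of the fold after thinning, at a log2 ratio of 0.57. *Lyz2*, which encodes lysozyme, was at 29267 against 18365 CPM and *Fth1*, the ferritin heavy chain, at 40521 against 22608. Of 7 other tetraspanins tested, *Cd81* was past the fold, at 88.8 against 139 CPM and so lower, a call that held in 7 of 12 alternative settings, and *Cd9* was at 3568 against 2754. None of 11 exosome biogenesis genes was past the fold, with a median log2 ratio of −0.06, and *Sdcbp*, which encodes syntenin, was at 752 against 717 CPM. None of 12 cholesterol handling genes besides *Apoe* was past it, with a median of −0.01, and *Abcg1*, a cholesterol exporter, was at 782 against 1072. The medians of those last lists turn positive when ratios are taken relative to the median gene, at 0.08 and 0.13.

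The largest ratio among genes at 100 CPM or more was that of *Fstl1*, which encodes a secreted follistatin-like protein of the family that binds TGF-beta superfamily ligands. It was at 138 CPM (130 to 146) in Cd63-high and 16.6 (14.2 to 19.3) in Cd63-low cells, 8.32-fold, with a UMI in 24.7% and 6.01% of the cells. At 3800 UMIs per cell the shares were 16.9% and 3.01%. The background cells held *Fstl1* themselves, at 220 CPM, and so give no background for this gene. *Mfge8*, which encodes a bridge between apoptotic cells and phagocytes, was at 253 against 53.9 CPM. *Slamf7*, a signalling receptor of leukocytes, was at 110 against 26.3, *Hpse*, the gene of the heparan sulfate cleaving enzyme heparanase, at 102 against 33.7, and *Itgam*, which encodes the integrin chain CD11b, at 51.3 against 14.3. *Crip1*, *Wfdc17* and *S100a1*, which encode a LIM domain, a whey acidic protein domain and a calcium-binding protein, were at 2314 against 1383, 1093 against 548 and 589 against 343 CPM.

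Of the type I interferon list, 8 of 14 tested genes were past the fold, all higher, and all 14 had a log2 ratio above 0, with a median of 0.74. *Bst2* was at 429 CPM (416 to 444) against 188 (180 to 197), a log2 ratio of 1.19 (1.11 to 1.27). *Ifitm3*, which encodes a membrane protein that blocks viral entry, was at 144 against 39.8 CPM, a log2 ratio of 1.85 (1.69 to 2.02) that became 1.18 after thinning and 0.94 without the *Chil3* condition. The background cells held *Ifitm3* themselves, at 2200 CPM, and so give no background for it. *Isg15* was at 99.5 against 36.8, *Rsad2* at 67.3 against 20.0, and *Irf7*, the transcription factor that amplifies interferon production, at 83.6 against 35.7. *Ifitm3*, *Isg15*, *Rsad2* and *Irf7* reached the minimum of 50 CPM in Cd63-high cells only, so the count of 8 partly reflects that minimum. The untested members of the 27 listed genes with UMIs reached it in neither group. The median Cd63-high cell held no UMI of *Isg15* or *Rsad2*, and the log2 ratio of *Rsad2*, 1.75, became 0.43 after thinning. *Slfn5*, another interferon-inducible gene, was at 180 against 76.4. None of 4 tested interferon-gamma targets was past the fold, with a median log2 ratio of −0.02 that turns positive relative to the median gene.

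*Ly6e*, which encodes a GPI-anchored interferon-inducible surface protein, was at 786 CPM (767 to 805) in Cd63-high and 539 (525 to 554) in Cd63-low cells. Its quartiles over cells were 388, 691 and 1055 against 200, 396 and 687, so the groups overlap widely. The log2 ratio of 0.54 (0.49 to 0.59), or 1.46-fold, fell just short of the fold used here. It passed the fold in 4 alternative settings, with 0.59 at a *Cd63* threshold of 1500, 0.61 as the mean over cells, 0.63 without dividing cells and 0.69 relative to the median gene. In the other direction, it was 0.41 after thinning and 0.43 when cells were chosen and measured on separate UMIs.

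All 13 tested MHC class I genes had a log2 ratio above 0, with a median of 0.53, and 4 were at least 1.5-fold higher. *H2-D1*, a classical heavy chain, was at 2741 against 1562 CPM, *H2-T23*, a nonclassical heavy chain, at 351 against 171, *H2-Q7* at 79.5 against 41.7, and *Tap1*, a subunit of the peptide transporter, at 78.8 against 50.7. The *Tap1* call held in 10 of 12 alternative settings. It was lost after thinning and when cells were chosen and measured on separate UMIs. H2 genes resemble each other closely, and reads may have been split among them. The MHC class II genes did not share this direction. All 6 were below 0 under each scaling, with a median of −0.33 and none past the fold. *Cd74*, the invariant chain, was at 490 against 605 CPM, a log2 ratio of −0.30 that turned to 0.058 after thinning.

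The letters GAAANNGAA were found in the 300 bases around the start, 250 before and 50 after, of 7 of 9 genes of the interferon list that had a RefSeq window (77.8%). They were found in 18 of 78 genes higher in Cd63-high cells (23.1%), 12 of 86 genes lower (14.0%), 243 of 2572 tested genes (9.45%) and 2638 of 27025 genes in all (9.76%). The E-box CACGTG, the core of the element known for lysosomal genes, was found in 7 of 27 lysosome genes (25.9%), 11 of 78 higher genes (14.1%), 14 of 86 lower genes (16.3%) and 13.2% of tested genes. The AP-1 letters TGANTCA were found in 14 of 78 higher genes (17.9%), 9 of 86 lower genes (10.5%) and 6.77% of tested genes. The antioxidant response letters TGACNNNGC were found in 19.2%, 17.4% and 19.9% of these groups, and the NF-kB letters GGGNNTTTC in 0 of 78 higher genes, 4.65% of lower genes and 5.13% of tested genes. The lists also held letters other than those known for them. AP-1 letters were in 4 of 9 interferon genes (44.4%), and antioxidant response letters in 7 of 27 lysosome genes (25.9%). Each set of letters was searched on both strands. The shares of all 27025 windows were 8.09% for the E-box, 8.97% for AP-1, 14.0% for the antioxidant response letters and 5.06% for NF-kB. Neither the interferon letters nor the E-box were present in the windows of *Cd63* or *Gpnmb*. These counts describe letters in a window and say nothing of binding.

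**Figure D2:**
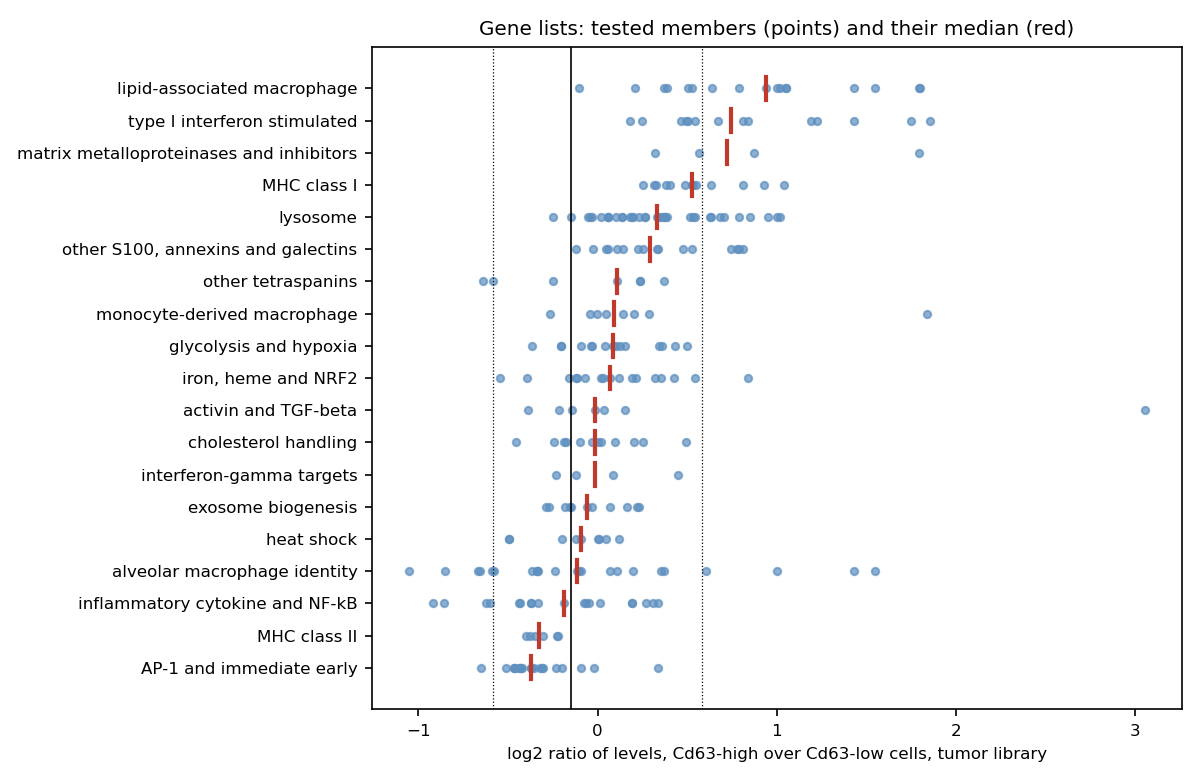
Log2 ratio of each tested gene of 19 lists in Cd63-high over Cd63-low cells of the tumor library, with the list's median in red. The solid line is the median of all 3206 tested genes at −0.15 and dotted lines mark 1.5-fold. All tested type I interferon and MHC class I genes lie right of 0, all MHC class II genes lie left of it, and *Fstl1* stands apart at 3.06.

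Genes lower in Cd63-high than in Cd63-low cells were led by *Stmn1*, which encodes a microtubule-destabilizing protein of dividing cells, at 39.1 (35.0 to 43.6) against 137 (130 to 145) CPM, a log2 ratio of −1.81 (−1.99 to −1.63). Without dividing cells its ratio was −0.64, and *Net1* was then lower than it. The median cell of both groups held no *Stmn1* UMI. The G2/M list summed to 122 CPM against 345 in Cd63-low and 327 in other cells, and its 1 tested gene, *Hmgb2*, was at 91.2 against 148, past the fold in 8 of 12 alternative settings. The share of cells with at least 3 UMIs of that list, without thinning, was 16.2% (13.6% to 19.1%) in Cd63-high, 16.7% (14.6% to 18.9%) in Cd63-low and 18.3% in other cells. Such shares depend on depth, and Cd63-high cells were the deeper ones, so these shares are not set against the sums. The S phase list summed to 276 CPM against 434 in Cd63-low and 467 in other cells, and both of its tested genes were below 0, although the unthinned shares were 47.3%, 42.7% and 46.5%, so no order is read from them. *Net1* was at 52.9 against 137 CPM and *Fpr2*, a formyl peptide receptor, at 75.4 against 166. *C5ar1*, the receptor for complement C5a, was at 93.4 against 172, *Trem1*, an amplifying receptor of myeloid inflammation, at 89.4 against 165, and *Thbd*, which encodes thrombomodulin, at 69.1 against 129. *Rassf5*, *Fam129a*, *Cdc42ep3*, *Cyb561a3* and *Crem* had log2 ratios between −1.08 and −0.87.

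Of 19 tested inflammatory cytokine and NF-kB genes, 4 were lower past the fold and none was higher, with a median log2 ratio of −0.19 and 6 genes above 0, or 9 above 0 relative to the median gene. *Osm*, a cytokine of the IL-6 family, was at 595 against 918 CPM, *Il6* at 26.8 against 50.7, *Il18* at 112 against 170, and the chemokine *Ccl4* at 77.6 against 140. *Osm* and *Il18* stayed past the fold in 7 of 12 alternative settings. After thinning *Ccl4* alone of these 4 was past it, and at a *Cd63* threshold of 750 *Il6* alone was. Of 20 AP-1 and immediate early genes, 19 were below 0, with a median of −0.37, whereas 2281 of all 3206 tested genes were below 0. Relative to the median gene, 17 of the 20 were below 0, with a median of −0.23. *Fosl2* alone was past the fold, beside 3.52% of all tested genes that were lower. It was at 332 against 521 CPM and stayed past the fold in 9 of 12 alternative settings. *Junb* was at 1506 against 1947, a log2 ratio of −0.37 (−0.40 to −0.34).

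Genes of AM identity went both ways. Of 23 tested, *Fabp4*, *Fabp5*, *Ctsk* and *Bhlhe41* were higher and *Car4*, *Ear1*, *Mrc1*, *Krt79* and *Plet1* were lower past the fold, with a median log2 ratio of −0.11 that becomes 0.03 relative to the median gene. *Ctsk*, a collagen-degrading protease, was at 592 against 296 CPM. *Ear1*, an eosinophil-type ribonuclease, was at 72.4 against 131, and fell just short of the fold after thinning, at a log2 ratio of −0.58. *Krt79*, a keratin, was at 50.2 against 104. *Mrc1*, the mannose receptor, was at 474 against 714 and stayed past the fold in 6 of 12 alternative settings. *Car4*, which encodes carbonic anhydrase 4, was at 54.5 against 85.9, but its log2 ratio of −0.66 turned to 0.21 after thinning and to 0.11 when cells were chosen on a random 50% of their UMIs and measured on the rest.

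*Inhba*, which encodes the subunit of activin A, was close to level across the groups. Its level was 159 CPM (150 to 167) in Cd63-high, 143 (135 to 150) in Cd63-low and 147 (144 to 151) in other tumor cells, with a log2 ratio over Cd63-low cells of 0.15 (0.05 to 0.26). At 3800 UMIs per cell, an *Inhba* UMI was found in 23.4% of 693 Cd63-high cells (20.3% to 26.7%), 21.0% of 1064 Cd63-low cells (18.5% to 23.5%) and 19.8% of 5180 other cells. Without thinning the shares were 33.6%, 29.8% and 27.2%. The same background cells gave 0 of 17 cells at that depth, with an exact upper limit of 19.5%, and 1 of 20 without thinning, at a median of 11512 UMIs. That limit lies close to the share in other cells, so these few cells say little about background. Of 7 tested activin and TGF-beta genes, *Fstl1* alone was past the fold. *Tgfb3* was at 0.119 CPM.

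Of 16 other S100, annexin and galectin genes 4 were at least 1.5-fold higher in Cd63-high than in Cd63-low cells, with a median log2 ratio of 0.29. Of 4 tested metalloproteinases and inhibitors *Mmp12* and *Mmp14* were higher, with *Mmp14* at 67.4 against 36.7 CPM. Both reached 50 CPM in Cd63-high cells only, and *Mmp14* fell short of the fold after thinning, at a log2 ratio of 0.54. Of 17 iron, heme and NRF2 genes *Fth1* was higher, and of 8 monocyte-derived macrophage genes *Itgam* was. *Itgam* reached the minimum of 50 CPM in Cd63-high cells only, so nothing is read from that call about the list. None of 15 glycolysis and hypoxia genes and none of 9 heat shock genes was past the fold. *Ccr2*, the chemokine receptor of monocytes, was at 9.31 against 21.2 CPM, *Ly6c2* at 1.67 against 1.88 and *Cx3cr1* at 3.22 against 1.58. In other tumor cells *Ccr2* was at 6.70, *Ly6c2* at 1.73 and *Cx3cr1* at 3.40.

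The second comparison set the same 733 cells against the 5768 other cells of the tumor library, and shares the Cd63-high cells with the first. Beside the rule's genes, the Cd63-high cells held more *Slamf7*, *Hpse*, *Itgam* and *Ecm1* and more of 12 of 14 tested interferon-inducible genes. Of 26 tested AM identity genes 11 were at least 1.5-fold lower and 1 was higher, while the list summed to 24945 against 24829 CPM. Among 3266 genes tested, 154 were at least 1.5-fold higher (4.72%), 4 of them used by the rule, and 247 lower (7.56%), 1 of them used by the rule. The median log2 ratio was −0.15. Here too, some genes reached 50 CPM in 1 group only. *Ifitm3*, *Mmp12*, *Mmp14*, *Itgam* and *F13a1* were among those that reached it in Cd63-high cells only and could only be called higher. *Fabp1*, *Krt19* and *Cidec* were among those that reached it in other cells only and could only be called lower. The counts of lists in this comparison partly reflect that minimum.

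*Slamf7* was at 110 CPM in Cd63-high and 16.3 in other cells, a log2 ratio of 2.76 (2.62 to 2.90). *Hpse* was at 102 against 16.2 and *Itgam* at 51.3 against 9.21, 6.27-fold and 5.57-fold. *Ecm1*, the gene of a secreted matrix protein, was at 237 against 52.8, a log2 ratio of 2.17, and *Ecm1* in Cd63-low cells lay between, at 139. *Syngr1* was at 227 against 53.0 and *Spp1* at 6302 against 1703, a log2 ratio of 1.89 (1.87 to 1.90). In contrast, *Fabp4* was level at 412 CPM in both, while it was at 140 in the Cd63-low cells. *Ctsk* was at 592 against 724 in other cells, again unlike its place against Cd63-low cells.

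Of the 17 tested lipid-associated macrophage genes, 6 were past the fold against other cells, with a median log2 ratio of 0.36 and 5 genes below 0. They were *Gpnmb*, *Spp1*, *Fabp5*, *Mmp12*, *Syngr1* and *Trem2*. Of the 14 tested interferon genes, 12 were past the fold against other cells, with a median log2 ratio of 1.10. *Ifitm3* reached 50 CPM in Cd63-high cells only, at 144 against 41.4, so that count partly reflects the minimum. *Ly6e* was at 786 against 444 CPM, a log2 ratio of 0.82 (0.78 to 0.86). *Mmp14* was at 67.4 against 21.7. Of 8 tested monocyte-derived macrophage genes 5 were past the fold, all higher, among them *Itgam* and the monocyte coreceptor gene *Cd14* at 564 against 315 CPM. *Fn1*, which encodes fibronectin, was at 1366 against 698, and *F13a1*, a coagulation factor subunit gene, at 71.9 against 22.1. That list summed to 2941 CPM against 1699 in other cells, but Cd63-low cells held about the same, at 2979. Of 6 MHC class II genes, *H2-Aa*, *H2-Ab1*, *H2-Eb1* and *Cd74* were higher, with *Cd74* at 490 against 279, although each was below its level in Cd63-low cells. Heat shock genes *Hspa1a*, *Hspa1b* and *Hsp90aa1* were lower, with *Hspa1a* at 119 against 302 and *Hspa1b* at 129 against 367 CPM, 2 near-identical genes between which reads may have been split.

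The AM identity genes had a median log2 ratio of −0.30 against other cells, with 9 of 26 above 0. The lowest ratios among all genes at 100 CPM or more belonged to genes in that list and outside it. *Fabp1*, a fatty acid carrier of liver and gut, was at 6.56 CPM (4.94 to 8.54) against 172, *Krt19* at 17.4 against 251, *Cidec*, a lipid droplet gene, at 14.0 against 196 and *Ccnd2*, a cyclin of the G1 phase, at 33.9 against 333. *Krt79* was at 50.2 against 389 and *Ear1* at 72.4 against 353. *Flt1*, which encodes a VEGF receptor, was at 39.7 against 137 CPM, and unlike those it was not lower than in Cd63-low cells, at 33.5, except when cells were chosen and measured on separate UMIs, where its log2 ratio was −0.15. *Cidec*, *Krt79*, *Ear1* and *Ccnd2* had intermediate levels in Cd63-low cells, of 37.3, 104, 131 and 67.8.

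**Figure D3:**
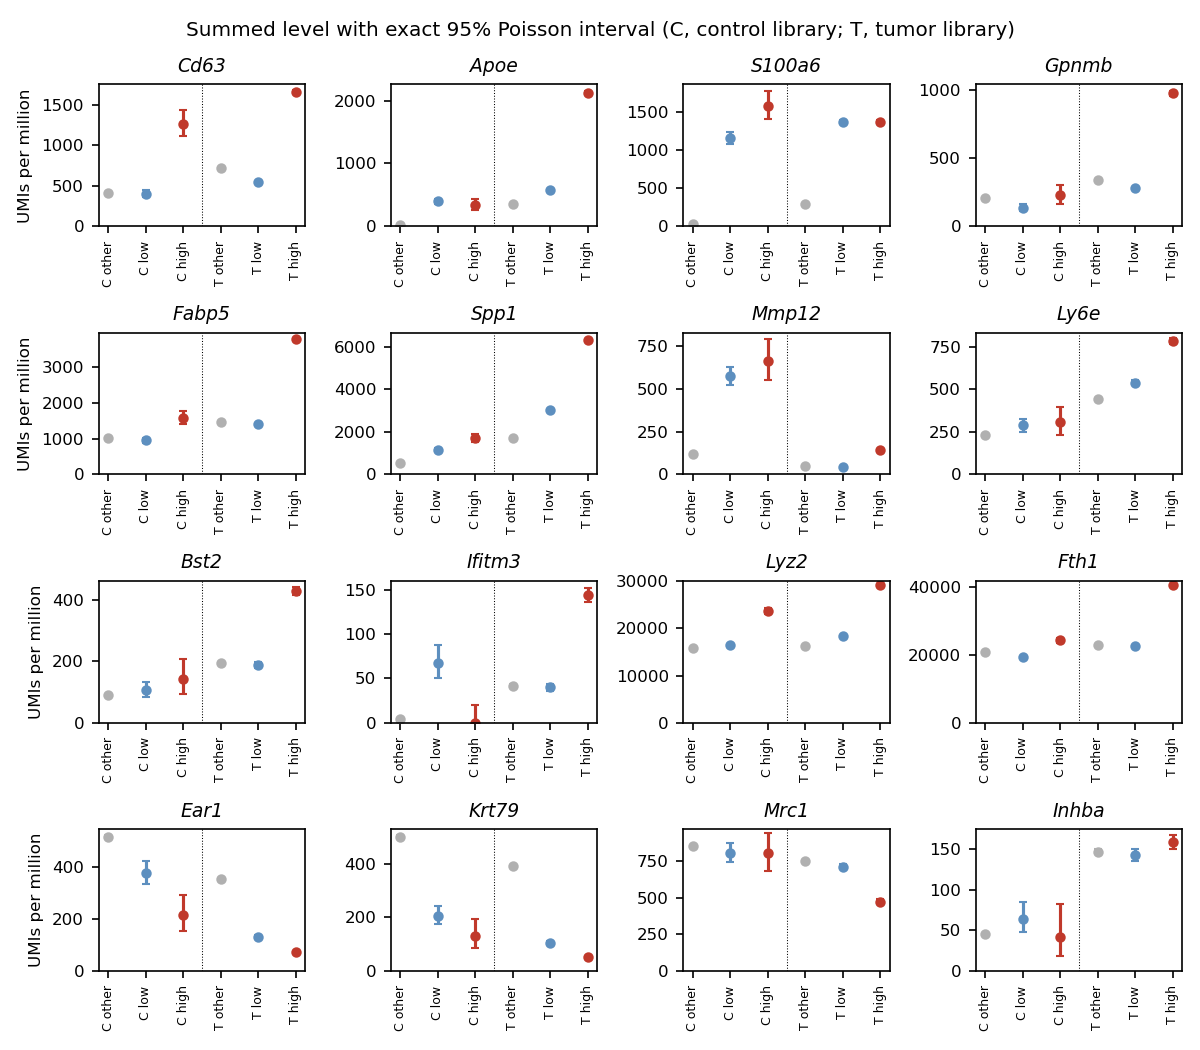
Summed levels of 16 genes in CPM, with exact 95% Poisson intervals, in other, Cd63-low and Cd63-high cells of the control library (C, 6080, 83 and 22 cells) and the tumor library (T, 5768, 1165 and 733 cells). *Gpnmb*, *Fabp5*, *Spp1* and *Bst2* have their highest level of the 6 groups in the Cd63-high tumor cells, *Ear1* and *Krt79* their lowest, and *Mmp12* is higher in both *Apoe* and *S100a6* groups of the control library than in any tumor group.

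The split at 1000 CPM cut through a continuous range, with 220 of the 1898 tumor cells between 900 and 1100 CPM. Just inside the threshold, at 1000 to under 1200, lay 188 cells with a median of 9798 UMIs, and just outside, at 800 to under 1000, lay 227 with 8885. *Gpnmb* stood at 581 CPM just inside and 401 just outside, *Fabp5* at 2534 and 1752, and *Spp1* at 5060 and 3680. *Ly6e* stood at 760 and 615, *Apoe* at 1064 and 794, *S100a6* at 1330 and 1366, and *Inhba* at 114 and 136.

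Over 8 ranges of *Cd63*, from under 250 to 2000 CPM and over, with 139 to 323 cells each, several genes had a higher level in each successive range. *Gpnmb* went from 135 CPM in the lowest to 1548 in the highest range, *Fabp5* from 961 to 5745, *Ctsl* from 275 to 1107 and *Bst2* from 120 to 590. Others of the same lists did not go up at every step. *Ctsk* went from 201 to 857 CPM with 414 and 410 in the fifth and sixth ranges, *Irf7* from 17.3 to 95.4 with 74.0 and 65.8 there, and *Isg15* from 30.9 to 141 with 64.7 and 40.4. *Mmp12* went from 11.1 to 195 and *Rsad2* from 22.3 to 53.1, with 136 in the seventh range. *Fstl1* went from 2.47 to 303 CPM and *Apoe* from 314 to 3541. *Ly6e* went from 423 to 825 in the seventh range and was at 796 in the last. *S100a6* stayed between 1311 and 1412, and *Inhba* had no order, at 132, 135, 153, 146, 112, 215, 103 and 238 CPM from the lowest range up. In the other direction, *Mrc1* went from 765 to 315, *Junb* from 2213 to 1325, *C5ar1* from 199 to 58.2 and *Stmn1* from 305 to 26.5. Median depth increased along the same ranges from 6668 to 12658 UMIs. The levels over ranges are from unthinned counts, so the part of depth in these gradients was not tested.

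The 8 genes whose level followed that of *Cd63* most closely over the ranges, among 205 with enough level and spread, were *Emp3*, *Fth1*, *H2-D1*, *Fcer1g*, *Cst3*, *Cd68*, *Creg1* and *Esd*, with Pearson's r between 0.996 and 0.999 over 8 points of 1 library. *Emp3* encodes a small membrane protein, *Fcer1g* the common Fc receptor gamma chain, *Creg1* a lysosomal glycoprotein and *Esd* an esterase. From the lowest to the highest range *Cd68* was 3.75-fold higher, *Fth1* 3.32-fold and *Fcer1g* 2.16-fold.

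**Figure D4:**
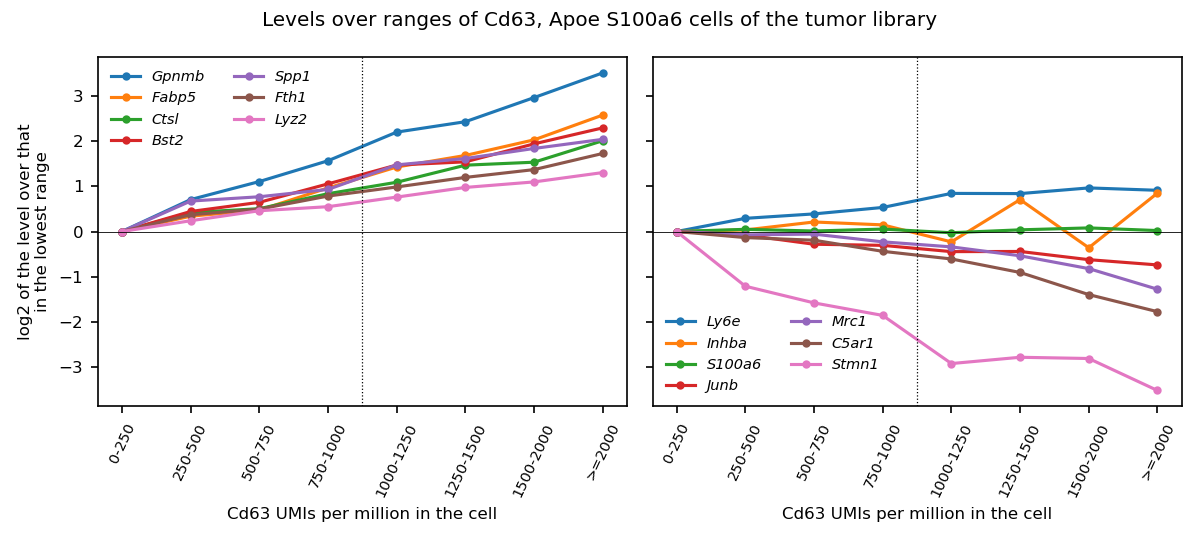
Log2 of the level in each of 8 ranges of *Cd63* CPM over the level in the lowest range, for 1898 *Apoe* and *S100a6* cells of the tumor library. The dotted line is the threshold of 1000 CPM. The 7 genes in the left panel are higher in every successive range, least for *Lyz2* and most for *Gpnmb*. In the right panel *S100a6* is flat, *Inhba* moves up and down, and *Stmn1* ends lowest.

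The same split of *Cd63* at 1000 CPM was then made in the cells outside the programme, which share no cell with the first comparison. In the tumor library 1185 of the 5768 other cells reached it and in the control library 536 of 6080. Many genes that differed with *Cd63* inside the programme differed the same way outside it, in both libraries, although *Ly6e* did not in the control library. Among 3277 tested genes 71 were higher (2.17%) and 64 lower (1.95%) in the tumor library's other cells, with a median log2 ratio of −0.14. Among 3229 in the control library's other cells 86 were higher (2.66%) and 92 lower (2.85%), with a median of −0.12.

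Of the 90 higher genes of the first comparison, the rule's genes left out, 54 (60.0%) were also at least 1.5-fold higher in the tumor library's other cells, where they made 78.3% of the 69 higher genes and where 73 of the 90 were tested. In the control library's other cells it was 36 (40.0%), or 42.4% of 85, with 59 tested. Of the 113 lower genes, 36 (31.9%, or 56.3% of 64) were lower in the tumor library's other cells and 32 (28.3%, or 34.8% of 92) in those of the control library. None was past the fold in the opposite direction in either. The difference between libraries was not tested.

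*Fstl1* had a log2 ratio of 2.85 (2.68 to 3.02) in the tumor library's and 3.83 (3.65 to 4.01) in the control library's other cells. *Gpnmb* had 1.49 (1.45 to 1.54) and 1.76 (1.71 to 1.82), *Fabp5* 1.32 and 1.81, and *Mmp12* 1.95 and 2.74. *Ctsl* had 0.90 (0.86 to 0.94) and 0.96 (0.90 to 1.02). Of these 5 genes *Fstl1* had the largest ratio in each library, as inside the programme. *Bst2* had 1.04 (0.98 to 1.10) and 0.50 (0.38 to 0.61), *Isg15* 0.96 and 0.54, and *Ifitm3* 0.66 and 0.60. Inside the programme *Ifitm3* was at 1.85, or 0.94 without the *Chil3* condition. *Ly6e* had 0.49 (0.45 to 0.53) in the tumor library and −0.12 (−0.21 to −0.04) in the control library, so its direction was not shared. *Stmn1* had −1.24 and −2.20, and *C5ar1* −0.80 and −0.87. *Inhba* had 0.10 (0.02 to 0.17) in the tumor library but 1.57 (1.45 to 1.69) in the control library, where it did differ with *Cd63*.

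**Figure D5:**
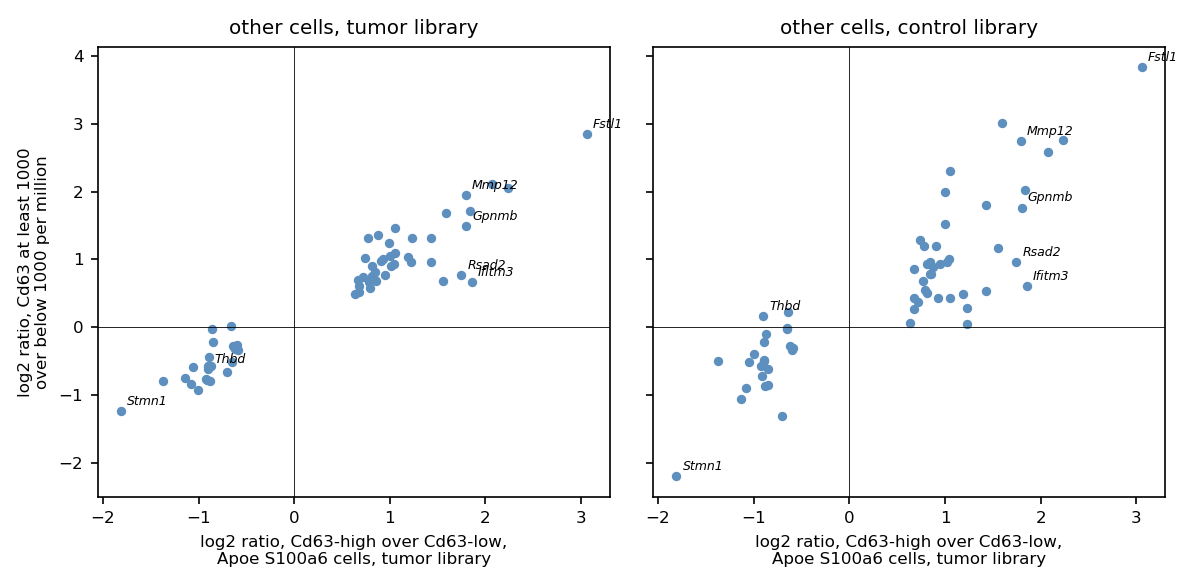
Log2 ratio of 62 named genes past 1.5-fold in Cd63-high over Cd63-low cells of the tumor library (x axis) against the log2 ratio of the same *Cd63* split in cells outside the programme (y axis), in the tumor library (left) and the control library (right). In the left panel 61 of 62 genes have the same sign on both axes, *Car4* being the exception, and in the right panel 60 of 62, all but *Thbd* and *Cd81*, while *Ifitm3* and *Rsad2* lie lower on the y axis than *Gpnmb* and *Mmp12*.

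The 733 cells were not uniform. Among 1617 genes with at least 1 UMI per cell on average, the overdispersion over Poisson had a median of 0.117, and the 8 highest genes were *Mmp12*, *Isg15*, *AW112010*, *Cxcl1*, *Hspa1b*, *Mfge8*, *Hspa1a* and *Cd74*. *Mmp12* was found in 108 cells and 97.1% of its UMIs in the 74 cells with the most, so its level of 142 CPM describes a minority. The 74 cells richest in each gene held 74.8% of *Isg15*, 88.0% of the chemokine *Cxcl1*, 75.3% of *Mfge8* and 72.7% of *Cd74* UMIs.

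Across the 733 cells, on the log2 scale of CPM plus 100, *Fabp5* went with *Fth1* (r = 0.66), *Gpnmb* with *Ctsd* (0.59) and with *Fabp5* (0.52), *Bst2* with *Ifitm3* (0.53) and *Ly6e* with *Bst2* (0.47). *Mrc1* went against *Fth1* (−0.46) and *Gpnmb* (−0.43). *Apoe* went against *S100a6* (−0.35), and the rule asked only for their sum with *S100a4*. *Cd63* had r = 0.22 with *Apoe*, 0.05 with *S100a6* and 0.06 with *Ly6e*. These are descriptions over cells of 1 library that share depth and ambient RNA, and carry no test.

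The cells overlapped with other ways of dividing these macrophages. Cells with at least 5000 CPM of *Spp1* made 302 of the 733 (41.2%, 37.6% to 44.9%), against 13.6% of Cd63-low and 6.19% of other cells. Cells with at least 2000 CPM over the interferon list, with *Ly6e*, *Ifi27l2a* and *Bst2* left out of it, made 14.7%, against 5.84% and 4.49%. *Gpnmb* reached 1000 CPM in 30.8%, against 3.69% and 4.14%, and at least 5 *Inhba* UMIs were found in 12.3%, against 8.76% and 8.41%, without thinning.

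In the control library the rule found 22 cells, so their values carry wide intervals. *Cd63* stood at 1265 CPM in these cells and 402 in the 83 Cd63-low cells, and *S100a6* at 1581 against 1156, but *Apoe* at 343 against 393. *Gpnmb* was at 227 CPM (164 to 305) against 135 (111 to 164), *Fabp5* at 1581 against 955 and *Spp1* at 1713 against 1154. The levels of *Gpnmb*, *Fabp5*, *Spp1* and *Apoe* were thus below those of the tumor library's Cd63-high cells, at 974, 3767, 6302 and 2117. *Mmp12* was at 664, above its 142 in the tumor library, and was at 573 in the control Cd63-low cells. *Ly6e* was at 306 CPM against 289, *Bst2* at 142 against 106, and *Inhba* at 42.2 against 64.4. *Fstl1* had 0 UMIs, which allows up to 15.8 CPM, and 17.2 CPM was measured in the other control cells.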

How the data were processed

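The authors demultiplexed and counted 10x Genomics 3′ libraries and deposited the raw UMI counts of each gene in each barcode, without normalization. The submitters' processing notes name Cell Ranger 4.0.0, bcl2fastq 2.20 and mm10, whereas the study's methods name another Cell Ranger version, and the annotation version is not given in the sources used here. Of 32285 Ensembl identifiers, 32158 were matched to a symbol, and 2 list genes had no match. Hashtag reads were not used here, and 1 gene among the lists' members is not reported here.

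UMIs were summed over the cells of a group and scaled to counts per 1000000 (CPM), with exact Poisson intervals, and ratios and shares with exact binomial intervals, at 95%. With 1 library per condition, neither a model nor a p-value was used. A gene was tested for a fold of 1.5 when at least 1 group reached 50 CPM. Where a group held 0 UMIs of a gene, the CPM of 3 counts is given. Shares of cells were compared after thinning to 3800 UMIs per cell, in the groups as first chosen. Gene ratios after thinning are from groups chosen anew on the thinned counts.

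Doublets were kept. Scrublet's automatic threshold called 0 cells in each library and so did not work. Of Cd63-high tumor cells 3.00% lay above the boundary of the highest 6% of scores, against 5.35% of all filtered tumor cells, and removing cells above it was an alternative.

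The members and lists were chosen with earlier results of these data known. Named genes were the rule's genes, those the study's text names for single cells or AM and TAM identity, the 12 largest ratios in each direction against Cd63-low and 10 against other cells at 100 CPM or more (ribosomal, mitochondrial and rule genes left out), up to 4 genes of each list past the fold or else its 2 most abundant, the 8 most overdispersed and the 8 most like *Cd63* over its ranges. Genes outside this rule are named where a list's count is spelled out. Alternatives changed the doublets, quality filter, *Cd63* threshold, depth, choice and measurement on separate UMIs, scaling, minimum level, *Chil3* and *Marco* conditions. Leaving out shared barcodes or dividing cells, and the *Cd63* split in other cells, were added after seeing the data. Gene coordinates are from GENCODE on GRCm38. Tools were scanpy 1.11.5, scipy 1.17.1, numpy 2.4.6 and matplotlib 3.10.9 under Python 3.11.15, and the scripts' statistics were tested on simulated data.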

Additional observations from a re-analysis of the deposited data

Results flagged for a closer look

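Among barcodes that failed the quality filter, which no comparison used, 32 of 1509 in the tumor library met the rest of the rule, 2.12% (1.45% to 2.98%), against 4 of 2300, or 0.174%, in the control library. Of these 32 barcodes, 27 exceeded the mitochondrial limit and 14 fell below the gene minimum, with a median of 972.5 UMIs.

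*Ifitm3* was listed because the Cd63-high cells of the control library held none of its UMIs. In the tumor library its log2 ratio of Cd63-high over Cd63-low cells was 1.85. In the control library it had 0 UMIs in the 22 Cd63-high cells and 52 UMIs in the Cd63-low cells, all of them in 2 cells. With 3 counts in the place of 0 the log2 ratio was −2.08, but with only 2 cells behind it this value is no bound and no direction is read from it. In the control library's other cells, split at the same level of *Cd63*, the log2 ratio was 0.60. The difference between libraries was not tested.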

How the results depend on the processing

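Of 62 named genes past 1.5-fold in Cd63-high over Cd63-low cells, 44 stayed past it in all 12 alternative settings and 61 kept their sign in all of them. The exception in sign was *Car4*, at 0.21 after thinning and 0.11 when cells were chosen on 50% of their UMIs and measured on the rest. *Rsad2* was at 0.43 and *Il6* at −0.36 after thinning, and *Itgam* at 1.10 with that choice of UMIs. After thinning 46 of the 62 genes were still past the fold, and those lost included *Cst3*, *Ear1*, *Lyz2*, *Mmp14*, *S100a1* and *Tap1*. *Mrc1* stayed past the fold in 6 of 12 settings, *Car4* in 5, and *Cd81*, *Il18* and *Osm* in 7. A *Cd63* threshold of 750 gave 13.4% of tumor cells, 74 lower genes and a *Cd63* log2 ratio of 1.79. A threshold of 1500 gave 348 cells (4.54%), 162 higher and 359 lower genes and 1.91 for *Cd63*. Thinning, with the groups chosen anew, gave 10.999% of cells, 61 higher and 59 lower genes, and log2 ratios of 1.96 for *Cd63*, 0.28 for *Inhba* and 0.41 for *Ly6e*. Choosing and measuring on separate UMIs gave 1.14, 0.34 and 0.43 for the same genes. Centring on the median gene gave 159 higher and 52 lower genes and 1.74, 0.30 and 0.69. The mean over cells gave 1.65 for *Cd63* and 0.61 for *Ly6e*. Without the *Chil3* condition the share was 10.7% and *Cd63* was at 1.64. Without dividing cells *Ly6e* was at 0.63. With 10 UMIs in place of the minimum level, 599 genes were higher and 1407 lower, since many genes with few UMIs then entered. The causes of the other shifts were not tested. No paired analysis was possible because each condition had 1 library. The number of cells limits the control library's 22 cells, and few UMIs limit every gene under 50 CPM.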
